A study of Homo sapiens with 6 samples.

Results

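The SOX family was followed as 10 genes (SOX2, SOX4, SOX5, SOX6, SOX9, SOX10, SOX11, SOX12, SOX13 and SOX18), chosen by symbol from the 26372 genes of the expression table. All 10 were found, and 5 of them reached the mean of 1 FPKM at which genes were tested. FPKM counts sequenced fragments relative to gene length and library size, so levels of different genes can be set beside each other. The RNA came from SH-SY5Y, a human neuroblastoma line that grows as neuroblast-like cells of the sympathetic lineage. Control cells (shNC) carried a control hairpin and knockdown cells (shTDP43) a hairpin against TDP-43, the RNA-binding protein encoded by TARDBP. Both hairpins were delivered by lentivirus and driven by a U6 promoter. The protocol listed for the samples of both groups gives puromycin selection at 2 µg/mL for 2 weeks, followed by 1 µg/mL. It words this for the stable knockdown cells. Each group had 3 poly(A)-selected libraries, and 1 hairpin against TDP-43 was used, so other effects of that hairpin cannot be told apart from the loss of TDP-43. Nothing in the labels ties the 3 libraries of a group to separate cultures, so p-values here cover only the spread among these samples, and that spread may be technical.

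SOX proteins are transcription factors that bend DNA through an HMG box, a domain that contacts the minor groove, and they usually act together with a partner factor on a neighbouring site. Vertebrate SOX genes fall into subgroups whose members resemble each other in sequence and often in function. SoxB1 factors such as SOX2 maintain neural progenitors, SoxC factors (SOX4, SOX11 and SOX12) act in young neurons and in sympathetic neuroblasts, and SoxE factors (SOX9 and SOX10) specify neural crest, glia and cartilage. SoxD factors (SOX5, SOX6 and SOX13) have no activation domain of their own and modify the action of other SOX proteins. SoxF factors such as SOX18 belong to the endothelium. SOX11 and SOX4 are strongly expressed in noradrenergic neuroblastoma.

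TARDBP, the targeted gene, had 56.1, 56.2 and 56.6 FPKM in the shNC libraries and 36.0, 33.1 and 34.8 FPKM in the shTDP43 libraries. It fell to 61.5% of control (log2 fold change -0.69, SE 0.03; limma adjusted p = 2.84e-06), so the knockdown was partial at the RNA level. At a limma adjusted p under 0.05, 38.1% of the 13263 genes tested were called (18.5% higher and 19.6% lower), and the groups did not overlap in 50.7% (25.3% with shTDP43 higher and 25.4% with it lower). Estimated sequencing depth was 1.16 to 1.28 in shNC and 1 to 1.11 in shTDP43, relative to the shallowest library. The shTDP43 libraries were thus the shallower ones, and the part of depth in differences among the lowest genes was not tested. One library of each group (shNC replicate 1 and shTDP43 replicate 3) was far lower than the others in the small nucleolar RNA SNORD3A.

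Some cell type markers also differed between the groups. Of 10 noradrenergic markers 9 were tested, of which 6 rose and 2 fell (4 to 6 and 1 to 2 over the alternatives), beside 18.5% higher and 19.6% lower among all tested genes. The summed level of the 10 was between 1700 and 1705 FPKM in shNC and between 1914 and 1967 FPKM in shTDP43, although TH, which encodes tyrosine hydroxylase, was near 0 in both groups (0.0254 and 0.12 FPKM on average). Most of that difference lay in CHGA, which encodes the granule protein chromogranin A and went from 296 ± 5.09 to 520.1 ± 8.04 FPKM (limma adjusted p = 2e-07; SD, n = 3), so the sum does not describe a general rise. DDC, a catecholamine synthesis gene, rose to 127% of control, while PHOX2A fell to 80.1%, HAND2 was at 94.9% with a call lost in 10 of the 16 alternatives, and GATA2 was at 97.2% and did not pass. Markers of Schwann cells summed to 3.33 to 3.78 FPKM in shNC and 2.70 to 2.97 FPKM in shTDP43, over 7 genes with CDH19 and FOXD3 at or near 0 in every library. Of 8 mesenchymal markers 5 were tested, of which 4 fell and 1 rose, beside the same shares of all tested genes. Their sums were 163 to 165 FPKM in shNC and 102 to 104 FPKM in shTDP43. Most of that difference lay in VIM, at 129 ± 0.381 and 84.9 ± 0.363 FPKM (SD, n = 3). COL3A1, a fibrillar collagen gene, went from 16.6 ± 0.246 to 1.93 ± 0.405 FPKM (limma adjusted p = 4.41e-07; SD, n = 3). VIM, FN1 and CD44 fell to 65.8%, 66.0% and 41.3% of control, PDGFRB rose to 123%, and COL1A1, COL1A2 and PRRX1 were below the level tested. Of 5 melanocyte markers 1 was tested and did not pass. Of 8 blood or epithelial markers 2 were tested, among them KRT18 with 2.17 ± 0.544 and 0.368 ± 0.208 FPKM (SD, n = 3), which reached the level tested only through shNC and was no longer tested without shNC replicate 2. The part of these marker shifts in the results on SOX genes was not tested. In bulk RNA, fewer cells of a type and less RNA per cell cannot be told apart.

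The family was dominated by its SoxC members, and SOX11 was the tested member that changed most. SOX11 rose 1.67-fold, whereas SOX4 and SOX12, its relatives in the subgroup, stayed within 5% of control. SOX6 fell to 72.7% of control, and SOX13 did not pass the test. Of the 5 tested members 1 was higher and 2 were lower, that is 3 of 5 beside a background of 38.1% of all tested genes. With so few members this count says nothing particular about the family. Their median log2 fold change was -0.04, beside 0.00 for all tested genes. An exact permutation test of 3 against 3 libraries cannot give a p below 0.1, so the calls rest on the limma fit across all genes.

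**Figure D1:**
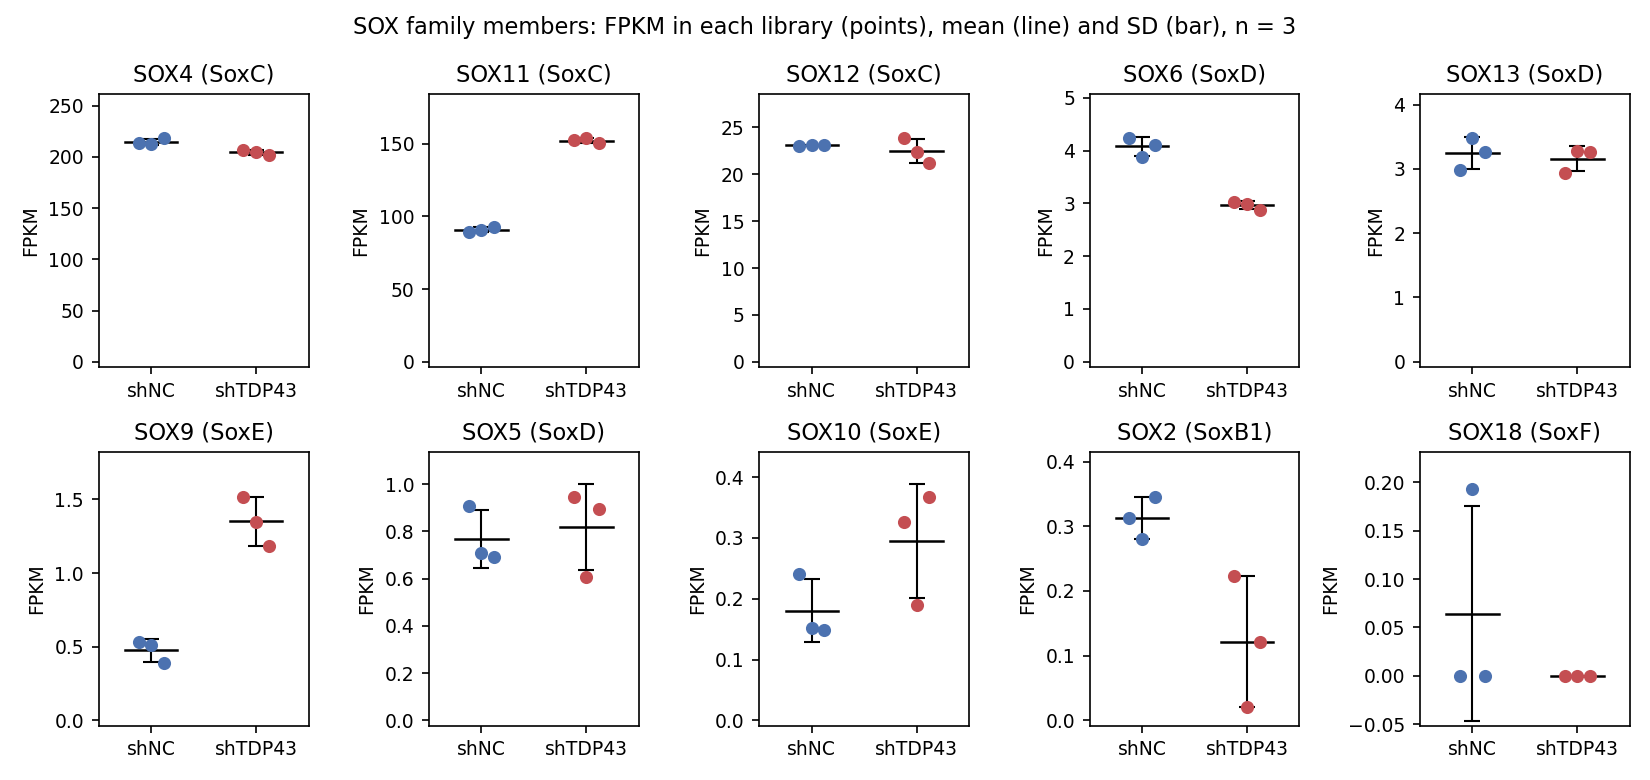
FPKM of each of the 10 SOX members in the 3 shNC libraries (blue) and the 3 shTDP43 libraries (red), each gene on its own linear axis that includes 0. Lines are means and bars the SD of 3 libraries. SOX11 and SOX9 lie higher in every shTDP43 library. SOX6, SOX4 (by a small margin) and SOX2 (at low levels) lie lower. The points of SOX12, SOX13, SOX5, SOX10 and SOX18 overlap.

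SOX4 was the most abundant member in both groups. It ranked 276th by mean level among the 13263 tested genes, and SOX11 ranked 460th. In shNC the mean levels fell in the order SOX4, SOX11, SOX12, SOX6, SOX13, SOX5, SOX9, SOX2, SOX10 and SOX18. Neighbours in that order did not overlap between libraries except SOX10 and SOX18. In shTDP43 the first 3 places were the same, but SOX13 stood before SOX6 with overlapping values, SOX9 stood before SOX5, and SOX10 before SOX2 with overlapping values. The summed FPKM of the 10 genes was 335, 336 and 343 in shNC and 392, 389 and 382 in shTDP43. That is 115% of control, and each shTDP43 sum was above each shNC sum (exact two-sided permutation p = 0.1, the smallest possible).

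SOX11 (GRCh38 chromosome 2, 5692384 to 5701385) is a SoxC activator of neuronal genes. It had 89.3, 90.7 and 92.7 FPKM in shNC and 152, 154 and 150.3 FPKM in shTDP43. The groups lay far apart, with no library of either group between 92.7 and 150.3 FPKM. The means were 90.9 ± 1.74 and 152 ± 1.69 FPKM (SD, n = 3), and the log2 fold change was 0.74 (SE 0.02, 95% interval 0.68 to 0.79; limma adjusted p = 2.66e-07). Among the tested genes 1.95% changed by at least as much as SOX11 in either direction, and 61 rose by more. Under all 16 other ways of processing the data, the log2 fold change of SOX11 was between 0.72 and 0.77.

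SOX4 (chromosome 6, 21593751 to 21598619) encodes the SoxC factor closest to SOX11 in role. Its levels were 214, 213 and 218 FPKM in shNC and 207, 204 and 202 FPKM in shTDP43. Every shTDP43 value was below every shNC value, by a small margin. The means of 215 ± 2.89 and 204 ± 2.60 FPKM (SD, n = 3) differed by -0.07 on the log2 scale (SE 0.02, 95% interval -0.12 to -0.02; limma adjusted p = 0.0293), which leaves 95.1% of control. This small fall is not a firm call. It lost significance under 10 of the 16 alternatives, with limma adjusted p values of up to 0.134, among them both rescalings and the omission of any shNC library, of shTDP43 replicate 2 or of shTDP43 replicate 3.

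SOX12 (chromosome 20, 325552 to 330224), the weakest activator of the SoxC subgroup, had 23.1, 23.1 and 23.15 FPKM in shNC and 23.9, 22.4 and 21.2 FPKM in shTDP43. The groups overlapped. The difference was -0.04 on the log2 scale (95% interval -0.14 to 0.06; limma adjusted p = 0.495), an interval that does not reach the change of SOX11.

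The balance within the subgroup shifted with SOX11. The ratio of SOX4 to SOX11 was 2.39, 2.35 and 2.35 in shNC and 1.36, 1.33 and 1.34 in shTDP43. This ratio is formed within a library and so does not depend on how libraries were scaled. SOX11 made up 26.9% ± 0.225 of the summed SOX signal in shNC and 39.2% ± 0.364 in shTDP43 (SD, n = 3), whereas SOX4 went from 63.6% ± 0.187 to 52.7% ± 0.156. Together with SOX12 they held 97.3% of the sum in shNC and 97.8% in shTDP43. All 10 ratios between pairs of the 5 tested members were compared. In 7 of them the groups did not overlap. These are all the pairs that contain SOX11 or SOX6, so their number restates the changes of those genes. Each of the 7 pairs had an exact two-sided permutation p of 0.1, or 0.143 after Benjamini-Hochberg adjustment over the 10 pairs, which the design cannot lower. The ratios of SOX4, SOX12 and SOX13 to one another overlapped between groups.

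**Figure D2:**
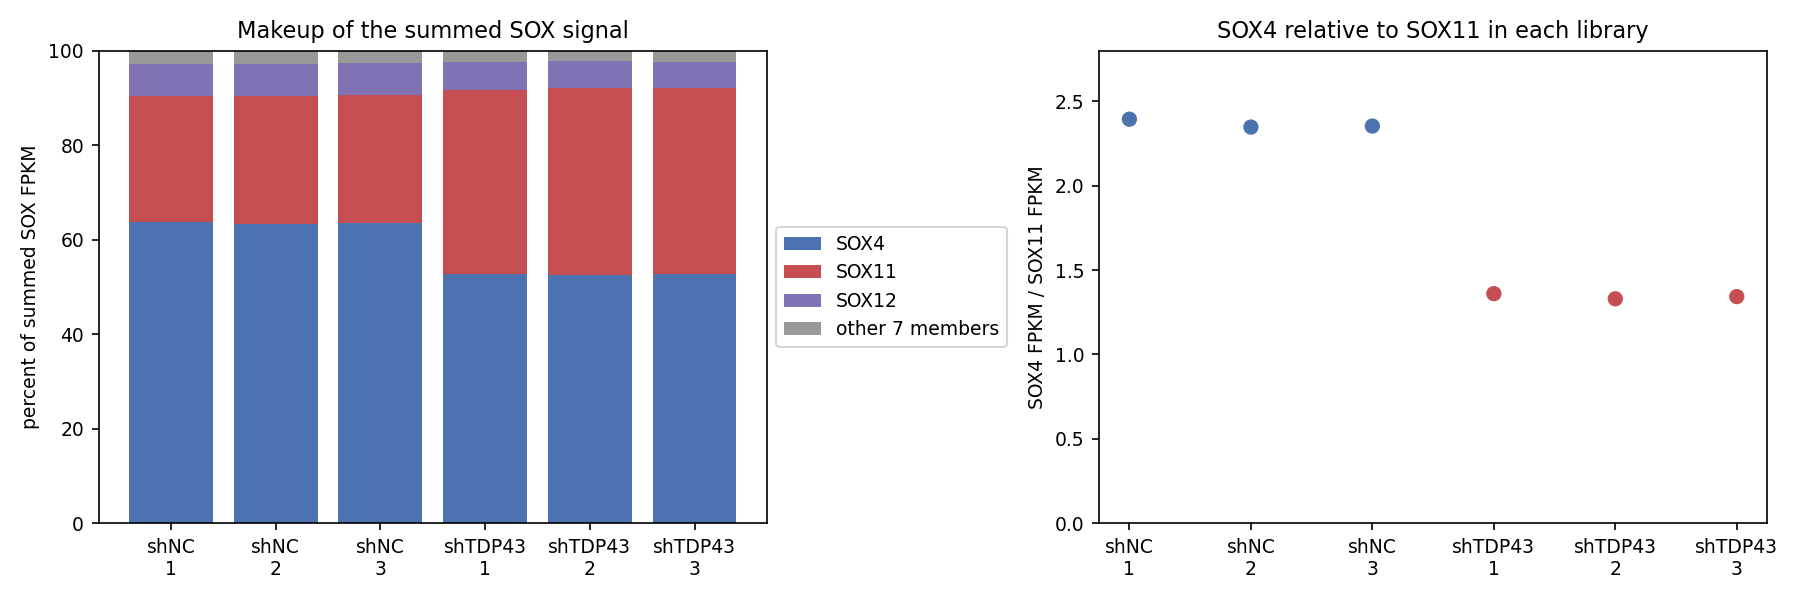
Left, the percent of the summed FPKM of the 10 SOX members held by SOX4, SOX11, SOX12 and the other 7 in each library, as stacked bars. Right, the FPKM of SOX4 divided by that of SOX11 in each library, on an axis from 0. The SOX11 share rose from 26.9% to 39.2% on average, and the ratio was at least 2.35 in shNC and at most 1.36 in shTDP43.

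SOX6 (chromosome 11, 15966449 to 16738477) encodes a SoxD factor of cartilage, muscle, blood and neurons. It had 4.23, 3.88 and 4.11 FPKM in shNC and 3.03, 2.99 and 2.88 FPKM in shTDP43, with no overlap. The mean fell from 4.08 ± 0.178 to 2.97 ± 0.081 FPKM (SD, n = 3), by -0.36 on the log2 scale (limma adjusted p = 0.00219; SE 0.06). Its call held under the 15 other settings in which it was tested, with limma adjusted p values of up to 0.0326. SOX6 shares a promoter region with C11orf58, which starts on the other strand with 169 bases between the annotated starts. C11orf58 had 42.2 ± 1.48 FPKM in shNC and 42.2 ± 1.34 FPKM in shTDP43 (SD, n = 3), 99.9% of control (log2 difference 0.00, 95% interval -0.08 to 0.08; limma adjusted p = 0.977). The fall of SOX6 was thus not shared by the gene across that interval. RefSeq gives SOX6 4 further start sites within its locus, and use of single starts was not analysed here.

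The 169 bases between SOX6 and C11orf58 are shown because they face one gene that fell and one that did not. The 250 bases before SOX12 and before SOX4 are shown beside them, as the SoxC promoters of members that moved little. All are from RefSeq (GRCh38.p14), 5′ to 3′ on the strand of the SOX gene, and stop at the base before its start. They are chr11:16738478-16738646 on the minus strand, chr20:325302-325551 on the plus strand and chr6:21593501-21593750 on the plus strand. Capitals mark the core of the motif bound by ZNF143 (ACTACA, any 2 bases, then TCCCA) on either strand in SOX6, and CCAAT, the box bound by NF-Y, on either strand in SOX12 and SOX4.
SOX6: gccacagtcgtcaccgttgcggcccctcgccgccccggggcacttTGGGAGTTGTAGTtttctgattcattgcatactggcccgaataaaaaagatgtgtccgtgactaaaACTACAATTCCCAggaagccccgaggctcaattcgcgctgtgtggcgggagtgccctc
SOX12: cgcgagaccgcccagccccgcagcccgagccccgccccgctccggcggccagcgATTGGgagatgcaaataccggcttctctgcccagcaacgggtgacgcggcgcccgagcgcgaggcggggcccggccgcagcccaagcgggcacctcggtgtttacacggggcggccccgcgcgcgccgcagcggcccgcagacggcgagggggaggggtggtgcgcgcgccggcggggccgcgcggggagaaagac
SOX4: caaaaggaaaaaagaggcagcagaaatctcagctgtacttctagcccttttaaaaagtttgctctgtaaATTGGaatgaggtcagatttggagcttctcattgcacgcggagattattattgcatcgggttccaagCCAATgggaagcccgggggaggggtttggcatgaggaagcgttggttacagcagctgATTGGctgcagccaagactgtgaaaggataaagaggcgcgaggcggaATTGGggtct

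The SOX6 interval held 2 matches to the ZNF143 core, beginning 124 and 58 bases before the SOX6 start. In the table of 35116 promoters, 1.27% of windows of 250 bases held at least 1 such match on either strand and 0.0883% held at least 2, this interval included for both of its genes. The second match contains the letters ACAAT, the core that SOX proteins themselves bind, which occurred on either strand in 24.6% of windows. The SOX4 window held 4 CCAAT boxes, as did 0.874% of windows with 4 or more, and no ACAAT. The SOX12 window held 1 CCAAT box and 3 GC boxes (GGGCGG on either strand, found in 42.6% of windows). It had 79.2% G and C and 42 CpG dinucleotides, against 48.8% and 8 for SOX4 and medians of 58% and 11 over all windows. A match to letters is a description and not evidence of binding. The table held promoters for 6 of the 10 members, and those of SOX9, SOX10, SOX11 and SOX18 are not shown.

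SOX13 (chromosome 1, 204073115 to 204127743), the SoxD member first known as an autoantigen, had 2.98, 3.48 and 3.27 FPKM in shNC and 2.94, 3.28 and 3.26 FPKM in shTDP43. The values overlapped (log2 difference -0.03, 95% interval -0.19 to 0.13; limma adjusted p = 0.78). SOX5 (chromosome 12, 23529504 to 24562650), which acts with SOX6 in cartilage, had 0.908, 0.707 and 0.690 FPKM in shNC and 0.947, 0.609 and 0.897 FPKM in shTDP43. It was below the level tested. Fitted without a filter on low values it also did not pass (limma adjusted p = 0.816). As a sum the SoxD members went from 8.09 ± 0.0333 to 6.94 ± 0.0806 FPKM (SD, n = 3), and SOX6 accounted for nearly the whole difference of -1.15 FPKM.

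SOX9 (chromosome 17, 72121020 to 72126416), a SoxE regulator of neural crest, cartilage and glia, had the largest relative rise of the family. It had 0.529, 0.511 and 0.386 FPKM in shNC and 1.52, 1.35 and 1.19 FPKM in shTDP43. The lowest shTDP43 value was above 2 times the highest shNC value, in libraries of lower estimated depth. The means were 0.475 ± 0.0779 and 1.35 ± 0.166 FPKM (SD, n = 3), a 2.84-fold ratio. The mean over all 6 libraries was 0.913 FPKM, just under the level tested. Without a filter on low values SOX9 rose, by 0.67 on the log2 scale (limma adjusted p = 0.00146; SE 0.07), beside 24.6% of 19907 genes called in that fit. The log2 fold change was 1.34 with a pseudocount of 0.1 (limma adjusted p = 0.00237), since adding 1 FPKM compresses changes of genes this low. In that unfiltered fit 4 of the 10 members were called, SOX11 and SOX9 as higher and SOX4 and SOX6 as lower.

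SOX10 (chromosome 22, 37972312 to 37984555), the SoxE factor of Schwann cells and melanocytes, stayed near 0. It had 0.240, 0.151 and 0.149 FPKM in shNC and 0.327, 0.190 and 0.368 FPKM in shTDP43, with overlap (unfiltered limma adjusted p = 0.183). Its locus lies within that of POLR2F, a subunit gene of RNA polymerases at 7.99 ± 0.496 and 8.40 ± 1.01 FPKM (SD, n = 3). The libraries were directional, but whether strand was used in counting was not given in the sources used here. A few reads of either gene could then be counted for the other.

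SOX2 (chromosome 3, 181711925 to 181714436), the SoxB1 factor of neural stem cells, was low in both groups. It had 0.313, 0.280 and 0.346 FPKM in shNC and 0.222, 0.02 and 0.122 FPKM in shTDP43. Each shTDP43 value was below each shNC value, at 38.8% of control on average, but the unfiltered fit did not pass (limma adjusted p = 0.0504 with a pseudocount of 1 and 0.0829 with 0.1). The long noncoding RNA SOX2-OT, within which SOX2 lies, was at or below 0.0475 FPKM in every library. SOX18 (chromosome 20, 64047582 to 64049639), an endothelial SoxF factor, was listed at 0 in 5 libraries and at 0.193 FPKM in shNC replicate 2.

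Of the other SOX genes, 9 were in the list and all 9 in the table. SOX7, a SoxF gene, was the only one tested, with 3.72 ± 0.209 and 3.55 ± 0.211 FPKM (SD, n = 3; limma adjusted p = 0.57). SOX15 had 0.401 ± 0.195 and 0.635 ± 0.162 FPKM with overlapping groups, and its locus overlaps the end of MPDU1, which was at about 17 FPKM in both groups. SOX1, SOX3, SOX8 and SOX17 were listed at 0 in all libraries. SOX14, SOX21 and SOX30 did not exceed 0.166 FPKM in any library.

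Genes beside the tested members did not move as 1 block with them. The nearest tested gene to SOX11 was LINC01105, a long noncoding RNA that starts 231.3 kb beyond it (5932687 to 5980218) and is now named SILC1. Its mouse counterpart has been reported to act on Sox11 in cis. LINC01105 had 1.40, 1.33 and 1.31 FPKM in shNC and 2.49, 2.44 and 2.53 FPKM in shTDP43. It rose 1.85-fold with no overlap (log2 fold change 0.57, SE 0.07; limma adjusted p = 0.000458), and so changed in the same direction as SOX11.

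Beside SOX4 no such shared direction was seen. The noncoding RNAs CASC15 and NBAT1 of the neuroblastoma susceptibility locus on the same chromosome rose, to 115% (limma adjusted p = 0.0184) and 151% of control (limma adjusted p = 0.000884), while SOX4 did not rise. With LINC01105 they were the 3 tested of 8 listed RNAs at SOX loci, and all 3 rose, beside 18.5% of all tested genes. NBAT1 (22134602 to 22147193, minus strand) lies within CASC15 (21666413 to 22195820, plus strand), so their reads may be mixed. Their rises may then not be separate. CASC15 no longer passed when shNC replicate 2 or 3 or shTDP43 replicate 1 was left out (limma adjusted p of up to 0.0602). CDKAL1, on the other side of SOX4, was at 104% of control and did not pass (limma adjusted p = 0.317).

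Beside SOX6, the neuropeptide gene CALCB lies 887.8 kb away and fell to 53.1% of control (limma adjusted p = 0.000446), while C11orf58 was at 99.9% of control as given above. Beside SOX12, NRSN2 fell to 87.4% of control (limma adjusted p = 0.0213). It no longer passed when shNC replicate 2, shTDP43 replicate 1 or 3, or both libraries low in SNORD3A were left out (limma adjusted p of up to 0.0777). NRSN2-AS1, which starts on the other strand with 299 bases between its start and that of SOX12, was at 107% of control and did not pass (limma adjusted p = 0.392). Beside SOX13, ETNK2 fell to 81.0% of control (limma adjusted p = 0.0272), a call lost without a filter on low values, without both libraries low in SNORD3A and without shTDP43 replicate 1 or 2. SNRPE was at 96.9% and did not pass (limma adjusted p = 0.19).

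**Figure D3:**
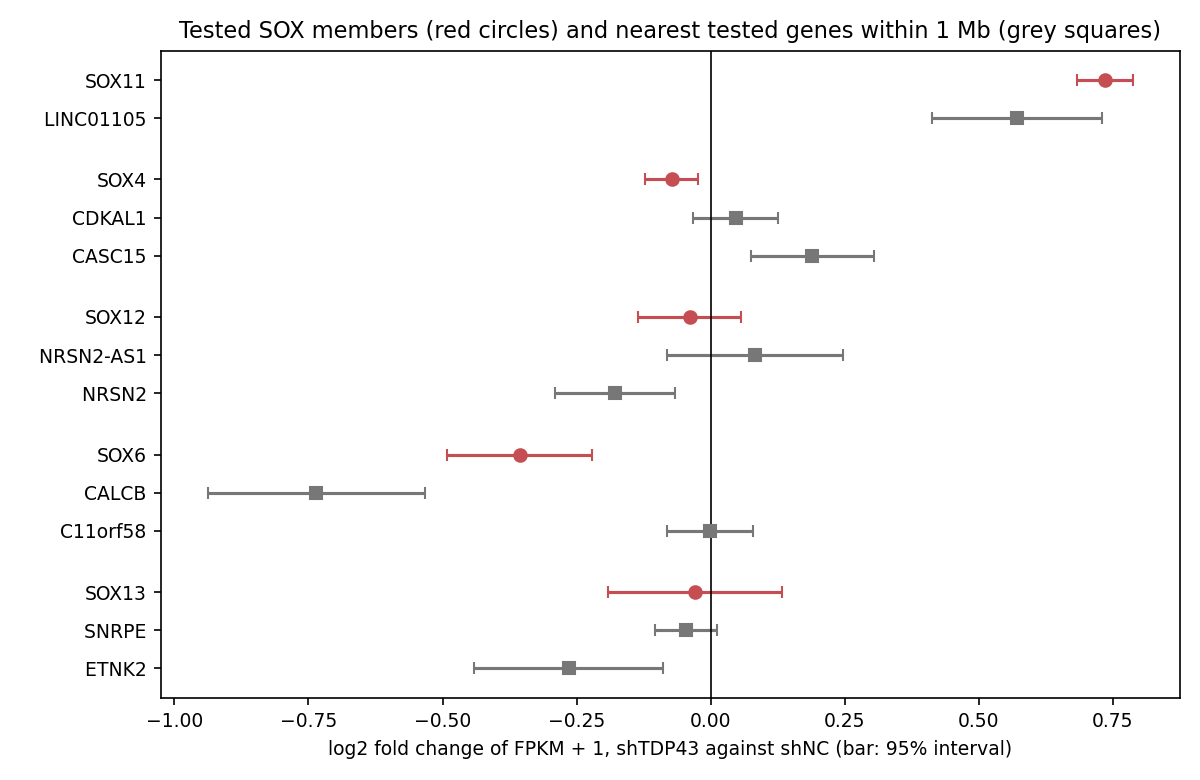
Log2 fold change of FPKM + 1 (shTDP43 against shNC) with its 95% interval for the 5 tested SOX members (red circles) and the nearest tested genes on each side within 1 Mb (grey squares, listed under the member). LINC01105 lies to the right of 0 with SOX11, CASC15 lies to the right while SOX4 lies just left of 0, and C11orf58 lies at 0.00 while SOX6 lies at -0.36.

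Genes reported to depend on SOX4 or SOX11 were mostly higher. Of 11 listed genes 10 were tested, and 8 rose and 1 fell, beside 18.5% higher and 19.6% lower among all tested genes. Their median log2 fold change was 0.19. The list was assembled with the rises of SOX11 and of DCX known, so its direction is not independent evidence. DCX, which encodes a microtubule protein of migrating neurons, had 14.7 ± 0.118 FPKM in shNC and 28.95 ± 0.443 in shTDP43 (limma adjusted p = 2.6e-07; SD, n = 3). MYB, a proto-oncogene, rose to 138% of control, with means of 3.38 ± 0.303 and 4.66 ± 0.0791 FPKM (limma adjusted p = 0.00286), and NEUROD1, a neuronal basic helix-loop-helix factor, rose to 139% (limma adjusted p = 0.0203). The chromatin genes CBX2, SMARCC1, SMARCAD1 and KDM1A rose to 117%, 115%, 114% and 106% of control, and TUBB3, a neuronal tubulin gene, to 112%. The gene that fell was TEAD2, a partner of YAP in transcription, which had 10.1 ± 0.738 and 7.04 ± 0.604 FPKM, that is 70.1% of control (limma adjusted p = 0.00153), and MAP2 was at 104% and did not pass (limma adjusted p = 0.0754). Without both libraries low in SNORD3A, 5 were higher and 1 lower. The calls of TUBB3, NEUROD1 and KDM1A were lost there, those of NEUROD1 and KDM1A also when shNC replicate 1 or 3 or shTDP43 replicate 3 was left out, and that of KDM1A when shTDP43 replicate 2 was.

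Genes reported to depend on SOX10 or SOX9 in glia, melanocytes or neural crest were mostly too low to test. Of 16 listed genes 3 were tested, which describes those 3 genes and not the list. PMP22, a myelin protein gene, fell from 16.8 ± 0.455 to 6.14 ± 0.0708 FPKM and RET, a receptor tyrosine kinase gene, from 144 ± 0.881 to 60.9 ± 1.73 FPKM (limma adjusted p = 2e-07 and 3.05e-08; SD, n = 3). S100B had 1.5 ± 0.339 and 0.774 ± 0.149 FPKM (SD, n = 3) and so reached the level tested only through shNC. Its limma adjusted p was 0.0155, a call lost when shNC replicate 1 or 2 or both libraries low in SNORD3A were left out. The other 13 genes, ERBB3 among them, were below the level tested, and GJB1 and MAL were listed at 0 in all libraries. In cartilage, SOX9 works with SOX5 and SOX6, but the main targets COL2A1 and ACAN were near 0 in both groups. Of the 3 cartilage genes tested, COL11A1 rose to 146.5% of control (limma adjusted p = 0.00979; 1.37 ± 0.113 and 2.01 ± 0.109 FPKM), COL9A3 fell to 71.2% (limma adjusted p = 0.0467) and COL9A2 did not pass. The share called among all tested genes was 38.1%. The call of COL9A3 was lost without any 1 of the 6 libraries, and that of COL11A1 without both libraries low in SNORD3A (0 higher and 0 lower of 3).

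Genes of the SOX2 network split evenly, with 3 of 6 tested members higher and 3 lower of 16 listed. Among all tested genes 18.5% were higher and 19.6% lower. LIN28B, which encodes a blocker of let-7 processing, rose to 130.1% of control (limma adjusted p = 0.00163; 6.69 ± 0.186 and 8.71 ± 0.518 FPKM, SD, n = 3), and SALL4 rose to 129% and MSI1 to 118%. MSI1 no longer passed when replicate 2 or 3 of either group was left out. Among those that fell were NES, a neural progenitor filament gene, at 81.9% of control and CCND1, a cyclin gene, at 91.7%. Without a filter on low values 6 were lower, so the low genes of this list lay mostly on that side.

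Among the partners that bind DNA beside SOX proteins, 4 of 11 were tested and 1 passed, beside 38.1% of all tested genes. POU3F2, also named BRN2, is a POU factor of neural cells that pairs with SOX2 and SOX11. It rose from 3.80 ± 0.0785 to 6.12 ± 0.255 FPKM (SD, n = 3), 161% of control (log2 fold change 0.57; limma adjusted p = 0.000113). POU2F1, CTNNB1 and EGR2 were at 103%, 99.9% and 132% of control and did not pass. PAX3, the partner of SOX10 in neural crest, was listed at 0 in all libraries.

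**Figure D4:**
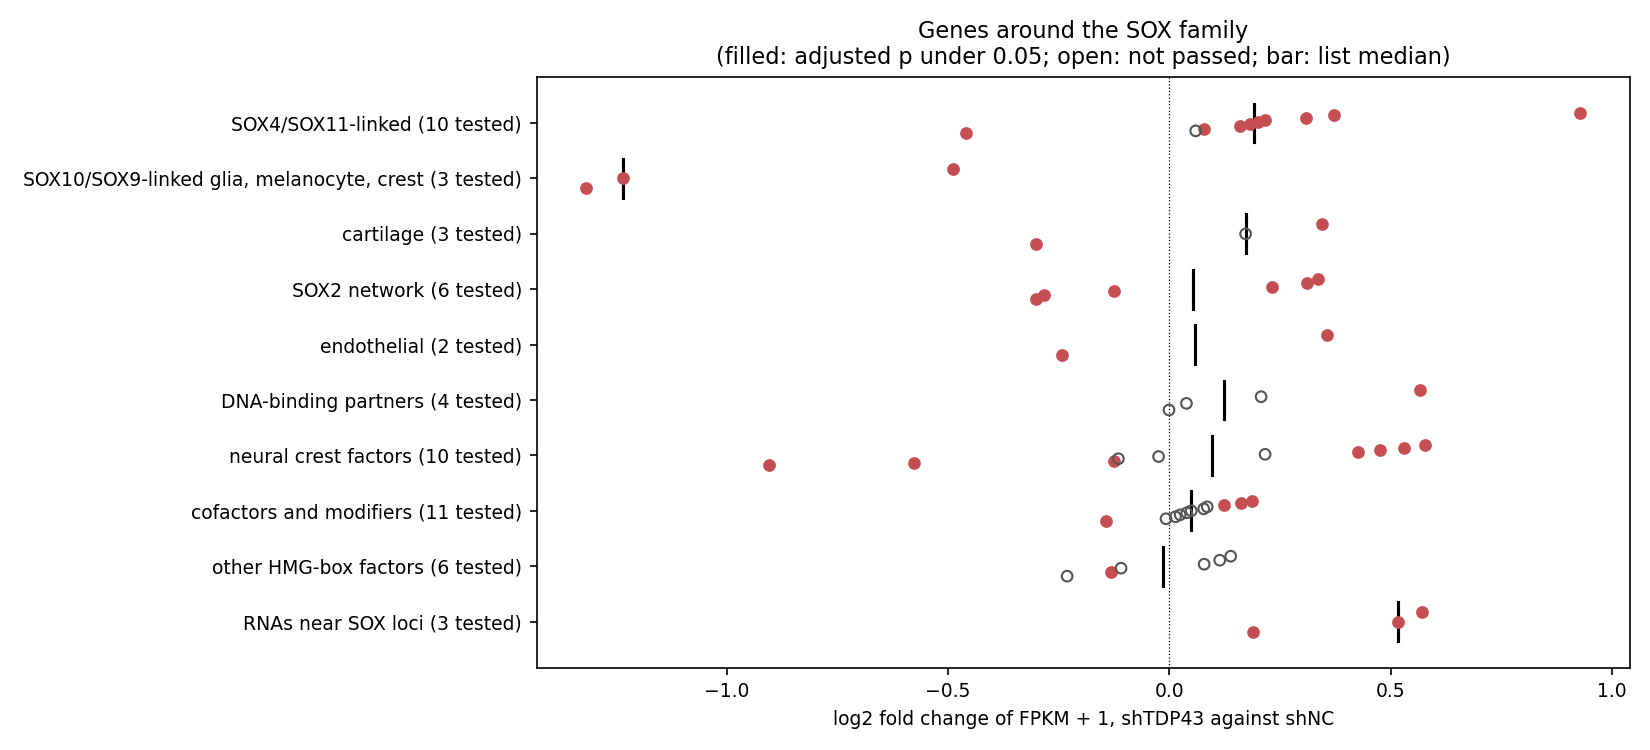
Log2 fold change of FPKM + 1 (shTDP43 against shNC) of each tested gene of 10 lists around the SOX family. Filled points passed a limma adjusted p under 0.05, open points did not, and black bars are list medians. Genes linked to SOX4 and SOX11 lie mostly to the right (median 0.19, with TEAD2 to the left), and the 3 genes linked to SOX10 and SOX9 lie to the left.

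The library values of SOX11 were compared with those of all other tested genes, as Euclidean distance between the 6 values of log2(FPKM + 1) taken relative to the shNC mean. The 3 closest genes were PHACTR2, INSM2 and GNA11, at distances of 0.07, 0.0889 and 0.11. PHACTR2 rose from 5.14 ± 0.0987 to 9.03 ± 0.0482 FPKM, INSM2 from 18.6 ± 0.462 to 31.2 ± 0.704 FPKM and GNA11 from 8.02 ± 0.137 to 13.4 ± 0.46 FPKM (SD, n = 3). These genes resemble SOX11 in the size of the change between groups, which is most of what 6 libraries in 2 groups can show.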

How the data were processed

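The members and gene lists were chosen with earlier results of these data known. The authors deposited FPKM values per gene symbol for 3 shNC and 3 shTDP43 libraries. Per the submitters' processing notes, the tools included TopHat2 2.1.0, SAMtools and Cuffdiff 2.2.1 and the build was hg38. Not given in the sources used here were the annotation, strand use, treatment of multi-mapped reads and scaling of libraries to one another.

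The values on the scale log2(FPKM + 1) were fitted with limma 3.58.1 in R 4.3.3. Testing was limited to the 13263 genes whose mean across all libraries reached 1 FPKM, and 13109 were below. The model had group as its only term, variances were moderated with a trend on level, tests were two-sided, and Benjamini-Hochberg adjustment ran over all tested genes. Adding 1 FPKM compresses the changes of low genes, so folds and percentages of control are ratios of mean FPKM. No count model was used, and absolute depth is unknown. Relative depth came from the most frequent ratio between libraries among 1655 genes with a mean under 0.3 FPKM that were above 0 in all libraries. No libraries were identical, and libraries correlated at r = 0.993 to 0.995 within and 0.980 to 0.982 between groups, across genes.

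Genes were named by rule: TARDBP, all members, other SOX genes, neighbours, the 2 largest changes past the threshold in each list and the 3 patterns closest to SOX11. Other list genes were named after their values were seen, and some list genes are not reported here. Locations and promoters came from RefSeq (GRCh38.p14, the assembly of hg38), where 25232 of 26372 symbols matched. On simulated data for shTDP43 against shNC (13181 genes tested) the fit recovered 17 of 50 genes at a 1.2-fold change, 39 of 50 at 1.5-fold and 46 of 50 at 2-fold, with 7 false calls. Only 50 genes were changed at each fold there, whereas 38.1% of tested genes were called in the data. The adjustment is stricter when few genes change, so these rates and false calls do not carry over to the data. Protein identities were not analysed here. The alternatives were other pseudocounts (0.1 and 0.01), filters (5 FPKM and none), quantile normalization, a common sum over genes between 1 and 1000 FPKM, no variance trend, omission of each library or of both libraries low in SNORD3A, a replicate block, and, added after the data were seen, no filter with a pseudocount of 0.1.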

Additional observations from a re-analysis of the deposited data

How the results depend on the processing

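The number of SOX members called lower was 2 and became 1 with a minimum of 5 FPKM, quantile normalization, a common library sum, no variance trend, the replicate block or the omission of both libraries low in SNORD3A, and ran from 1 to 2 when each library was left out. The member lost was SOX4 in each of these except at the minimum of 5 FPKM, where SOX6 was not tested. The number called higher was 1 and became 2 without a filter on low values, with a pseudocount of 1 or 0.1, and ran from 1 to 2 when each library was left out. The second was SOX9, which passed the level tested without shNC replicate 3. The rise of the summed SOX FPKM was 49.5 and became 56.1 with a common library sum (47.3 to 52.3 when each library was left out). The rise of the SOX11 share was 12.3 percentage points and became 12.9 with quantile normalization (12.2 to 12.5 when each library was left out). The fall of TARDBP and the median of the members kept their sign under all 16 alternatives. The labels do not say what same-numbered libraries share, and correlations of their deviations were -0.07, 0.06 and 0.11. Whether libraries were paired cannot be settled from 3 libraries per group. With the replicate block 2152 genes were higher and 2350 lower, against 2448 and 2606 without it, and the block removed the call of SOX4 and left those of SOX11 and SOX6. Without both libraries low in SNORD3A 1563 genes were higher and 1760 lower, with fewer samples in the fit. Counts of the lists that moved by over 1.5 times under an alternative ran from 5 to 9 higher for SOX4 and SOX11 targets (8 as reported), 1 to 6 higher for modifiers (3), 3 to 6 lower for the SOX2 network (3), 1 to 4 lower for neural crest factors (3), 0 to 2 higher and 0 to 1 lower for cartilage genes (1 and 1), 0 to 2 lower for other HMG-box factors (1), 0 to 1 higher for partners (1), 0 to 1 lower for endothelial genes (1) and for Schwann cell markers (1), 0 to 2 lower for blood or epithelial markers (1), and 1 to 2 lower for noradrenergic markers (2). The rough estimate of depth and the filter limit what can be said of SOX2, SOX10 and SOX18.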

Other observations

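Neural crest transcription factors outside the SOX family moved in both directions. Of 15 listed genes 10 were tested, 4 rose and 3 fell, beside 18.5% higher and 19.6% lower among all tested genes. ETS1 had 14.4 ± 0.217 FPKM in shNC and 21.9 ± 0.818 in shTDP43 (limma adjusted p = 1.31e-05; SD, n = 3), and TWIST1, a basic helix-loop-helix factor of crest and mesenchyme, DLX5 and TFAP2B rose to 145%, 169% and 135% of control. MSX2, a homeobox target of BMP signalling, fell from 4.84 ± 0.185 to 2.12 ± 0.0937 FPKM (limma adjusted p = 1.93e-05), SNAI2 fell to 60.9% and ID2 to 91.5% of control. ID2 no longer passed when shTDP43 replicate 3, or both libraries low in SNORD3A, were left out.

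Of 6 tested HMG-box factors outside the SOX family, BBX fell to 90.8% of control (limma adjusted p = 0.0298) and 0 rose. The shares among all tested genes were 19.6% lower and 18.5% higher. BBX no longer passed when shNC replicate 1 or 2, shTDP43 replicate 1 or 3, or both libraries low in SNORD3A were left out. Its call was also lost with a common library sum. LEF1 was below the level tested, at 0.369 ± 0.0352 FPKM in shNC and 0.118 ± 0.0191 in the shallower shTDP43 libraries (SD, n = 3). The groups did not overlap, and LEF1 was lower in the fit without a filter on low values (limma adjusted p = 0.00181). TCF7L2, an effector of Wnt signalling, had 3.57 ± 0.457 and 2.88 ± 0.126 FPKM (SD, n = 3) and did not pass (limma adjusted p = 0.0552). Of 11 cofactors and modifiers of SOX proteins, 3 rose, 1 fell and 7 did not pass. Among all tested genes 38.1% were called, so this count says nothing particular about the modifiers. CREBBP rose to 115% of control (limma adjusted p = 0.00164), WWP2 to 113% and EP300 to 109.7%. The deubiquitinase gene USP9X fell to 90.2% (limma adjusted p = 0.00346). WWP2 no longer passed when shNC replicate 1 or 3 or shTDP43 replicate 2 or 3 was left out, nor EP300 when shNC replicate 2 or 3 or shTDP43 replicate 1 or 3 was. The call of CREBBP was the only rise of the 3 that remained without both libraries low in SNORD3A. Of 12 endothelial genes 2 were tested, beside the same 38.1% called among all tested genes. PROX1, which is also a neuronal gene, rose to 129% of control while EPHB4 fell to 81.9%, a call lost without both libraries low in SNORD3A. PECAM1, CDH5 and VWF were at or near 0.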
